A study of Mus musculus with 6 samples.

Results

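The genes described here encode the proteins of the cytosolic ribosome. They were taken as all protein-coding mouse genes whose symbol is Rpl or Rps followed by a number, with Rplp0, Rplp1, Rplp2 and Rpsa, without the S6 kinase genes and without pseudogenes. The deposited table of 34981 genes held 84 such genes, 51 of the large subunit and 33 of the small subunit, and 2 further annotated genes that match the rule were not analysed here. RNA sequencing was carried out on spheroids of B16F10, an established mouse melanoma cell line, grown from 500 cells in 50 µl of Matrigel, a basement membrane gel, at 7 mg/ml. In 3 cultures BMP2, a secreted ligand of the bone morphogenetic protein family, was present at 100 ng/ml for 10 days, and 3 cultures received the vehicle, phosphate-buffered saline (PBS), for the same 10 days. The experiment was run 3 times, and each run (batch) holds 1 BMP2 and 1 PBS culture, so that libraries with the same number share a batch.

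Ribosomal proteins assemble with ribosomal RNA into the large and the small subunit, and each is needed in about equal number. Their messenger RNAs are abundant, are made from many separate loci, and start with a run of pyrimidines, the terminal oligopyrimidine (TOP) tract. That tract places their translation under the control of mTOR signalling and of the RNA-binding protein Larp1. Mammalian genomes also carry many processed pseudogenes of these genes, copies of the spliced messenger RNA that lack introns and often keep most of the coding sequence.

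Start regions are shown for members at both ends of the ranking by fold change, because the TOP tract is the sequence feature these genes are known for. They are the 3 members with the lowest and the 3 with the highest log2 fold change that had a RefSeq start on GRCm38.p6, out of the 8 lowest and 8 highest. Each line runs 5′ to 3′ over 30 bases, from 10 bases before the annotated gene start to 20 bases from it on, with the longest pyrimidine run in capitals.
Rpl13, chr8:123102340-123102369, plus strand: TTTCgcctgattttgattggcgtttgagat
Rps16, chr7:28350679-28350708, plus strand: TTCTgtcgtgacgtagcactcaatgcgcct
Rpl28, chr7:4792955-4792984, plus strand: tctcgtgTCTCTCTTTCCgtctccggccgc
Rpl5, chr5:107900518-107900547, plus strand: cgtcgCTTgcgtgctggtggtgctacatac
Rpl27, chr11:101442235-101442264, plus strand: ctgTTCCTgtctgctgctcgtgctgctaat
Rpl10, chrX:74270806-74270835, plus strand: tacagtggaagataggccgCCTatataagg

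The longest run in these windows was 11 bases in Rpl28, 5 in Rpl27, 4 in Rpl13 and Rps16, and 3 in Rpl5 and Rpl10. Over the first listed start of all 27025 genes of that table the median longest run was 4 bases. The annotated gene start is not always the base where transcription begins, so a short run says only that these letters are not in this window. A start was found for 65 of the 84 members (77.4%), which is below the 80% needed to relate the start sequence to the change in expression, and no such relation was computed.

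Ribosomal protein genes were lower on balance in BMP2 spheroids than in PBS spheroids, but most of that difference lay in batch 1 and no member passed the test as lower. The 84 genes held 4.59%, 3.48% and 3.99% of all estimated counts in BMP2 libraries 1, 2 and 3, against 6.08%, 3.91% and 4.21% in PBS libraries 1, 2 and 3. Means were 4.02 ± 0.55% in BMP2 and 4.73 ± 1.17% in PBS (SD, n = 3 each). The share was lower in the BMP2 library of every batch, while the groups overlapped, because BMP2 library 1 lay above PBS libraries 2 and 3. Without PBS library 1 the difference in means shrank to -0.04 percentage points, from -0.72 over all libraries. In such bulk samples, fewer cells of a type and less RNA per cell cannot be told apart.

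**Figure D1:**
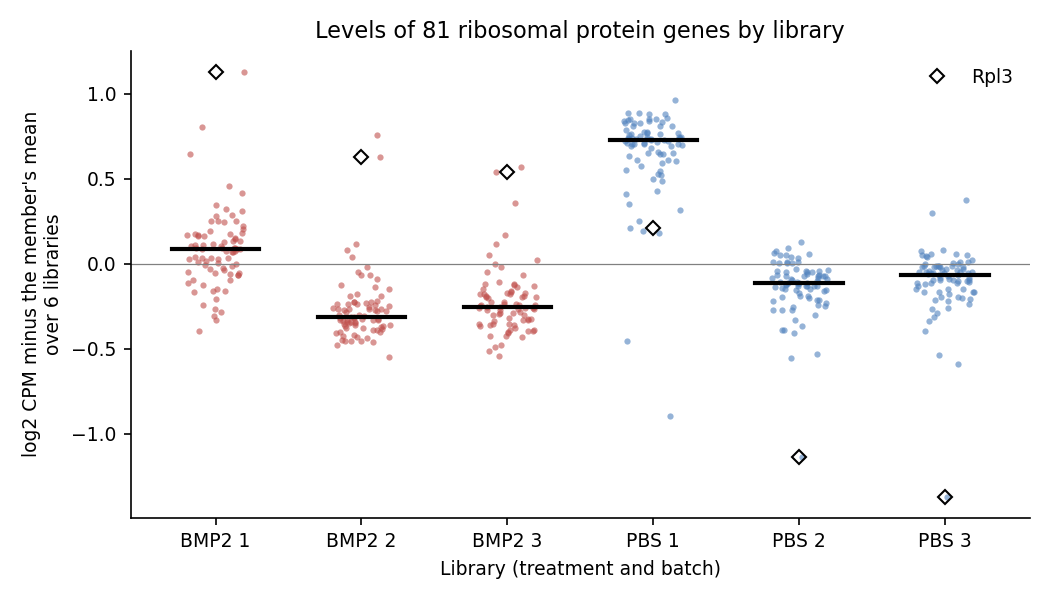
Level of each of the 81 ribosomal protein genes that entered the test, by library, as log2 CPM minus the gene's own mean over 6 libraries; each dot is a gene, the bar is the median, and the diamond is Rpl3. The medians are 0.09, -0.31 and -0.25 in BMP2 libraries 1 to 3 and 0.73, -0.11 and -0.07 in PBS libraries 1 to 3, and Rpl3 runs against the rest.

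Of the 84 members, 81 entered the test, and their lowest value in any library was 10.98 CPM (counts scaled to library size), in Rps27. The median log2 fold change over the 81 was -0.41, beside 0.01 over all 12929 genes tested, and 71 of 81 lay below 0, beside 48.9% of all genes. The median log2 difference within a batch was -0.65 in batch 1, -0.21 in batch 2 and -0.20 in batch 3. In 62 of 81 members the BMP2 library was lower in all 3 batches, beside 21.2% of all genes tested. Another 5, Rpl3, Rpl5, Rpl10, Rpl27 and Rpl30, were higher in all 3 batches, beside 22.8%. PBS library 1 was the highest of the 6 libraries for 74 members, and BMP2 library 2 the lowest for 45.

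PBS library 1 stood apart from the others across all genes as well. Its scaling factor was 0.872, against 0.975 to 1.09 in the other libraries, and it lay at -79.7 on the first principal component, against -16.8 to 55.5. Without it the median log2 fold change of the members was -0.08, beside 0.02 over all genes, and 57 of 81 lay below 0. That leaves BMP2 library 1, its partner in batch 1, in the comparison. Without both libraries of batch 1, and with the block, the median was -0.20 and 67 of 81 lay below 0. Quantile normalization, which gives every library the same distribution of values, brought the median to -0.18. The part of PBS library 1 in the common difference was not tested further.

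No member passed an adjusted p of 0.05 in the quasi-likelihood test of edgeR with treatment alone, in which 0.00773% of all genes were called higher and 0.0387% lower. The 1 gene called higher in that test was a pseudogene of a ribosomal protein. At an unadjusted p under 0.05, that test gave 1 member higher and 1 lower, beside 2.54% and 2.85% of all genes. With batch as a block, 1 member, Rpl3, was called higher (0.371% of all genes) and none lower (0.364%). With the block, an unadjusted p under 0.05 was reached by 4 members higher and 40 lower, beside 8.12% and 8.89% of all genes. DESeq2 called none without the block (0.48% of all genes higher and 0.526% lower), and with it 1 higher and 8 lower, among them Rpl13, Rpl14, Rpl18, Rpl28, Rps16 and Rps27rt, beside 1.86% and 3.19% of all genes.

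In both subunits the log2 fold changes centred on about the same value, with a median of -0.42 over 48 members of the large subunit and -0.39 over 33 of the small subunit, and 41 and 30 of them lay below 0. Without PBS library 1 the medians were -0.07 and -0.08. In 11 members all BMP2 libraries lay below all PBS libraries, beside 5.7% of all genes. Among them were Rpl4, Rpl23, Rpl23a, Rpl28 and Rplp1 of the large subunit, and Rps2, Rps4x, Rps26 and Rps29 of the small one. In 1 member, Rpl3, all BMP2 libraries lay above all PBS libraries, beside 6.4%.

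The 8 members with the lowest fold changes lay close together, at -0.64 to -0.57 on the log2 scale. Rpl13, a protein of the large subunit, had 359, 273 and 260 CPM in BMP2 libraries 1 to 3, against 652, 377 and 358 CPM in PBS libraries 1 to 3. BMP2 library 1 lay just above PBS library 3, so the groups overlapped, and the log2 fold change was -0.64 (SE 0.28, edgeR adjusted p = 0.883; 0.145 with the block). Rpl28, a large subunit protein, had 256, 216 and 223 CPM in BMP2 and 490, 305 and 258 CPM in PBS, without overlap (log2 fold change -0.60). Its pseudogene copy Rpl28-ps1 held 9805, 10099 and 11397 counts in BMP2 and 16690, 12386 and 10940 counts in PBS. Summed with its copies, Rpl28 had a log2 fold change of -0.50 and the groups overlapped. Rps16, Rplp1, Rpl18, Rpl36a and Rps19 also stood in these ranks, with log2 fold changes of -0.60, -0.59, -0.59, -0.57 and -0.57. Of Rplp1, 75.1% of the 31-base words of its transcripts also occur in other genes, so its counts are uncertain. Just inside these 8 ranks stood Rps19, and just outside Rplp2.

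The P stalk, the flexible arm of the large subunit that recruits the translation factors, is built from Rplp0, Rplp1 and Rplp2. Its 3 genes had a median log2 fold change of -0.57, and of -0.22 without PBS library 1. Rplp0, the base of the stalk, had 1123, 1145 and 1410 CPM in BMP2 libraries, against 2211, 1351 and 1457 CPM in PBS libraries. Rplp2 had 173, 142 and 141 CPM in BMP2, against 322, 189 and 167 CPM in PBS. In both genes the BMP2 library was the lower one in every batch, although the groups overlapped.

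Rpsa, a small subunit protein also described as a precursor of a laminin receptor, had 1723, 1617 and 1700 CPM in BMP2 and 3447, 1859 and 1676 CPM in PBS. Its log2 difference was -1.0004 in batch 1, -0.20 in batch 2 and 0.02 in batch 3. Rps2, a small subunit protein at the entry of the messenger RNA, had 929, 975 and 1051 CPM in BMP2 and 1891, 1080 and 1197 CPM in PBS, with no overlap (log2 fold change -0.50). Rps6, the substrate of the S6 kinases, had 172, 127 and 136 CPM in BMP2 and 267, 155 and 153 CPM in PBS (log2 fold change -0.41). Rps27a, which encodes a fusion of ubiquitin with a small subunit protein, had a log2 fold change of -0.46. Rpl11, which binds 5S ribosomal RNA together with Rpl5 and can inhibit Mdm2, had 250, 171 and 177 CPM in BMP2 and 392, 213 and 184 CPM in PBS (log2 fold change -0.40). For all of these genes edgeR's adjusted p was 0.883 with treatment alone.

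**Figure D2:**
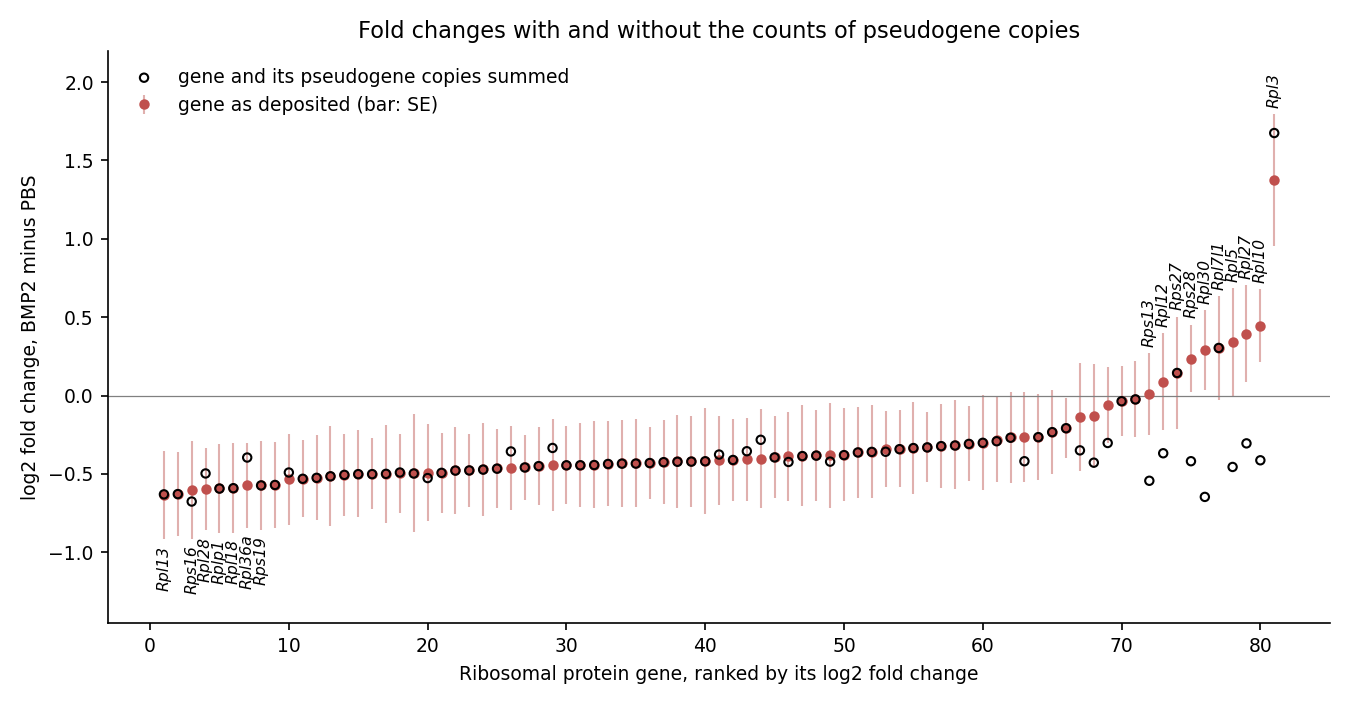
Log2 fold change (BMP2 minus PBS) of the 81 ribosomal protein genes tested, ranked from low to high, with its SE for the gene as deposited (filled) and the value after summing the gene with its pseudogene copies (open). As deposited 10 genes lie above 0, and with copies 3 do, of which Rpl3 is farthest from 0 at 1.68.

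Most members with a log2 fold change above 0 lay below 0 once counts at their pseudogene copies were added, and the share of counts at copies differed between treatments. Copies were taken as pseudogenes, or genes with a pseudogene symbol, of which at least 50% of the 31-base words occur in a member, which gave 286 copies of 67 members. Together, members and copies held 5.49%, 4.13% and 4.72% of all counts in BMP2 libraries, against 7.37%, 4.74% and 5.11% in PBS libraries. Of these, 16.5%, 15.8% and 15.6% sat at copies in BMP2, against 17.6%, 17.5% and 17.5% in PBS, so the share at copies was lower in all BMP2 libraries.

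Rps28, a small subunit protein encoded by a short reading frame, and its processed pseudogene Gm10443 show how alike the copies are. The 210 bases of the Rps28 coding sequence (chromosome 17) and of the Gm10443 transcript (chromosome 6) are identical in GENCODE M21, so no read within them can tell the genes apart.
Rps28 coding sequence and Gm10443: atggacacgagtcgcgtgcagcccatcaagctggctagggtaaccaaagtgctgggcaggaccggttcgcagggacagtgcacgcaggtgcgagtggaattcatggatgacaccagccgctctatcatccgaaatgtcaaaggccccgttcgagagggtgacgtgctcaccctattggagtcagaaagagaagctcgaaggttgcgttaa

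The table gave Gm10443 no counts in any BMP2 library, against 5100, 4019 and 3509 counts in PBS libraries 1 to 3. In BMP2 libraries 1 and 2 none of the counts at Rps28 and its 4 copies sat at a copy, and a count of 0 there allows shares of up to 0.0396% and 0.0337%. Counting error is the only error in these limits. Reads within the identical sequence cannot be assigned to a gene, so the limits do not bound the copy's true share. The share at copies was 0.0215% in BMP2 library 3, against 36.7%, 38.5% and 34.1% in PBS libraries. Rps28 alone had 260, 260 and 270 CPM in BMP2 and 286, 181 and 204 CPM in PBS, a log2 fold change of 0.24. With its copies it had 260, 260 and 270 CPM in BMP2, against 452, 294 and 309 CPM in PBS, a log2 fold change of -0.42 (SE 0.22, edgeR adjusted p = 0.886). The groups overlapped for the gene alone and did not overlap for the sum.

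Rpl30, a large subunit protein, had a like division. Rpl30-ps9 had 0, 34.1 and 76.5 counts in BMP2 libraries and 18823, 12891 and 0 counts in PBS libraries, and Gm12191 had counts in PBS library 3 alone, 10295. The share at all 7 copies was 0.0823%, 0.24% and 0.431% in BMP2, against 49.3%, 48.4% and 44.4% in PBS. Rpl30 alone had a log2 fold change of 0.29, and with its copies -0.65 (SE 0.27, edgeR adjusted p = 0.886).

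Rpl10, the protein whose loading completes the large subunit, had 483, 421 and 509 CPM in BMP2 and 451, 271 and 314 CPM in PBS, a log2 fold change of 0.45. Its copy Rpl10-ps3 on chromosome 9, which GENCODE lists as protein-coding, is identical over all 645 coding bases, and its counts were 10479, 8088 and 9080 in BMP2 and 25038, 19072 and 19551 in PBS. The share at copies was 42.7%, 36.0% and 30.9% in BMP2 and 64.4%, 66.4% and 65.1% in PBS, and the sum had a log2 fold change of -0.41. Rpl5, the partner of Rpl11, had 82.6%, 83.3% and 83.1% of its summed counts at copies in BMP2 and 89.3%, 90.8% and 91.1% in PBS, most of them at Gm15500. Its log2 fold change was 0.34 alone and -0.46 with copies. Rpl27, a large subunit protein, had 84.0%, 89.4% and 90.5% at copies in BMP2 and 92.7%, 92.5% and 91.9% in PBS, with log2 fold changes of 0.39 alone and -0.31 with copies.

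**Figure D3:**
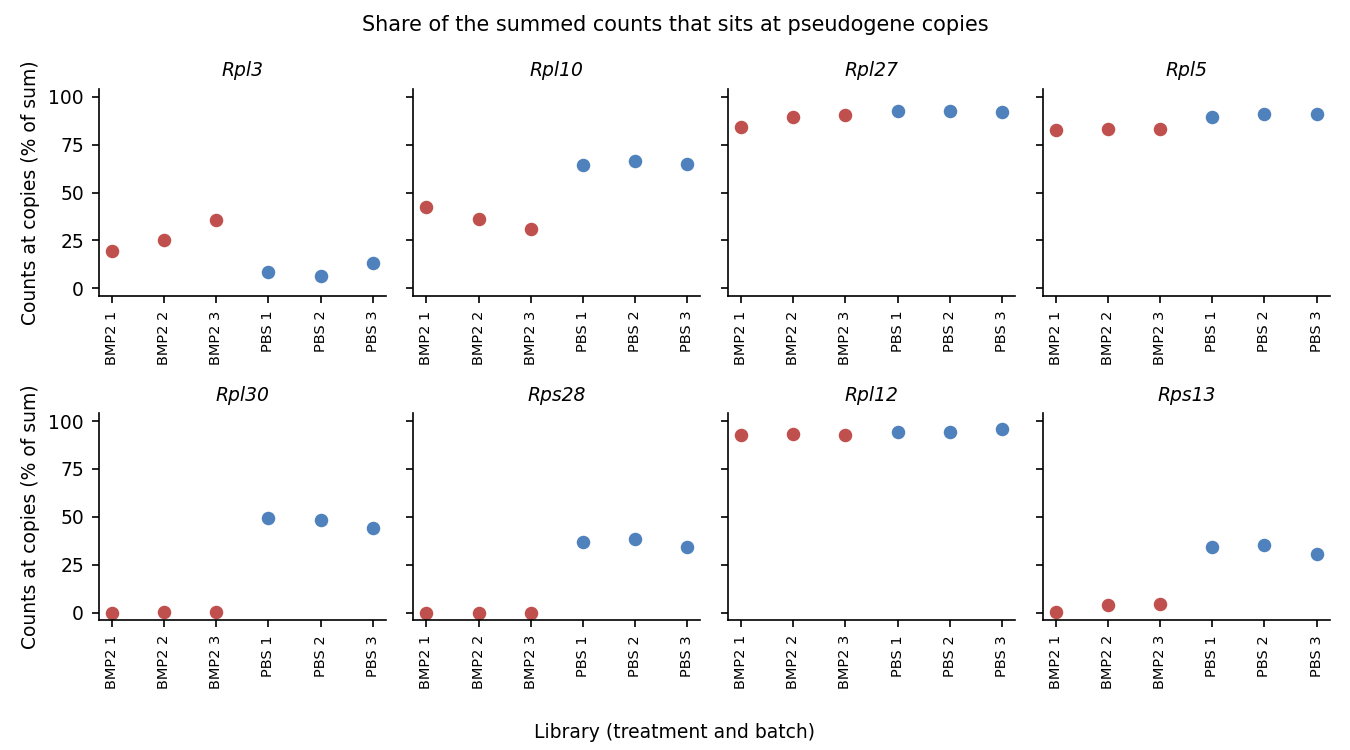
Share of the summed estimated counts of a gene and its pseudogene copies that sits at the copies, in percent, by library, for the 8 members with a log2 fold change above 0 that have copies; each dot is a library, BMP2 in red and PBS in blue. The BMP2 libraries lie below the PBS libraries in 7 panels, and above them for Rpl3, where they run at 19.3% to 35.9% against 6.71% to 13.4%.

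These 8 members were chosen by a fold change that the division of counts itself moves, so the direction of their shares is a description. Of the 25 tested members with at least 5% of their sum at copies in either treatment, the share at copies was lower in all BMP2 than in all PBS libraries for 13, higher for 6 (Rpl3, Rpl14, Rpl19, Rpl28, Rpl36a and Rps27a), and overlapped for 6. Among the 17 of them with a log2 fold change at or below 0 it was lower for 6, higher for 5 and overlapped for 6, so these had no common direction. A member could enter the 25 through the treatment with the higher share alone. That favours groups that do not overlap, so these counts are a description. To set these shares beside other genes, families of genes that share at least 80% of their 31-base words were examined for the share outside the gene with the most counts. Of 1184 families, 197 were kept. These had a minimum mean count, counts in every library, and at least 5% outside that gene in either treatment. The same filter held for all families, and a family could enter through the treatment with the higher share alone. In 19 of 26 kept families that hold a ribosomal protein gene the groups did not overlap, beside 29.4% of the 197 kept and 22.8% of the 171 without one. Of the 17 ribosomal protein families with no member above 0, the groups did not overlap in 11. Rps13, one of the 8 and a small subunit protein, had 0.294%, 3.92% and 4.50% of its sum at copies in BMP2 and 34.1%, 35.3% and 30.9% in PBS, and its log2 fold change was 0.01 alone and -0.54 with copies. Rpl36a, a large subunit protein, showed the opposite, with 14.4%, 10.2% and 14.1% in BMP2 and 0.971%, 1.45% and 2.48% in PBS, and log2 fold changes of -0.57 alone and -0.40 with copies. How the counts came to be divided between identical sequences was not tested.

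Summing copies left the median where it was and drew the members together. With copies the median log2 fold change was -0.42, 78 of 81 members lay below 0 rather than 71, and 71 rather than 62 were lower in all 3 batches. The SD of the log2 fold change over members other than Rpl3 was 0.15 with copies and 0.25 without. The quartiles with copies were -0.49 and -0.34. Above 0 were Rpl3 at 1.68, Rpl7l1 at 0.30 and Rps27 at 0.14. Rps27 has a near-identical gene of its own, Rps27rt, which is itself a member, and the sum of these 2 had a log2 fold change of -0.45. With copies summed, no member was called with treatment alone (0.0% of all genes higher and 0.0234% lower), and with the block Rpl3 was called higher (0.366%) and none lower (0.343%).

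Rpl3, a large subunit protein close to the peptidyl transferase centre, was higher in BMP2 spheroids in every batch. It lies on chromosome 15 of GRCm38, chr15:80077791-80091868 on the minus strand. Rpl3 had 153, 108 and 102 CPM in BMP2 libraries, against 81.01, 31.8 and 27.0 CPM in PBS libraries, and the groups did not overlap. The log2 differences were 0.92, 1.76 and 1.91 in batches 1, 2 and 3. With treatment alone the log2 fold change was 1.38 (SE 0.42, edgeR adjusted p = 0.690), and with the block 1.53 (SE 0.21, edgeR adjusted p = 0.0379). With the block the edgeR adjusted p was 9.58e-04 without batch 1, 0.166 without batch 2 and 0.00166 without batch 3. These fits rest on fewer residual degrees of freedom than the block fit with all batches. They called 1.73%, 0.0686% and 0.874% of all genes higher, against 0.371% with all batches, so a smaller adjusted p there is not stronger evidence.

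Its processed pseudogene Rpl3-ps1, on the X chromosome, was also higher in every BMP2 library than in every PBS library. Over the coding sequence of Rpl3 the aligned copy differs at 2 of 1209 bases, which are shown in capitals below with the bases beside them, at positions 57 and 786 counted from 1 at the start codon.
Rpl3, position 57: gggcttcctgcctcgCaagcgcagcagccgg
Rpl3-ps1, position 57: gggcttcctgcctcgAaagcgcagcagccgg
Rpl3, position 786: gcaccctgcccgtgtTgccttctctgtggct
Rpl3-ps1, position 786: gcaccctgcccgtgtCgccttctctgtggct

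Rpl3-ps1 had 1014, 1195 and 2242 counts in BMP2 libraries, against 143, 30.9 and 84.3 counts in PBS libraries, with a log2 fold change of 3.97 (SE 0.57, edgeR adjusted p = 0.101) and 4.15 with the block (SE 0.45, edgeR adjusted p = 0.0246). Rpl3 with its 4 copies had 189, 144 and 159 CPM in BMP2 and 88.8, 34.1 and 31.1 CPM in PBS, a log2 fold change of 1.68 (SE 0.40, edgeR adjusted p = 0.439) and 1.84 with the block (SE 0.25, edgeR adjusted p = 0.0365). So Rpl3 kept its direction when copies were summed, unlike Rpl5, Rpl10, Rpl27, Rpl30 and Rps28. Its level was low for a ribosomal protein gene. Per kilobase of transcript it had 200 ± 43 CPM in BMP2 and 65.6 ± 33.5 CPM in PBS (SD, n = 3 each), the seventh lowest of the 81 members. It made up 0.279 ± 0.031% of the length-scaled levels of all members in BMP2 and 0.078 ± 0.023% in PBS (SD, n = 3 each).

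**Figure D4:**
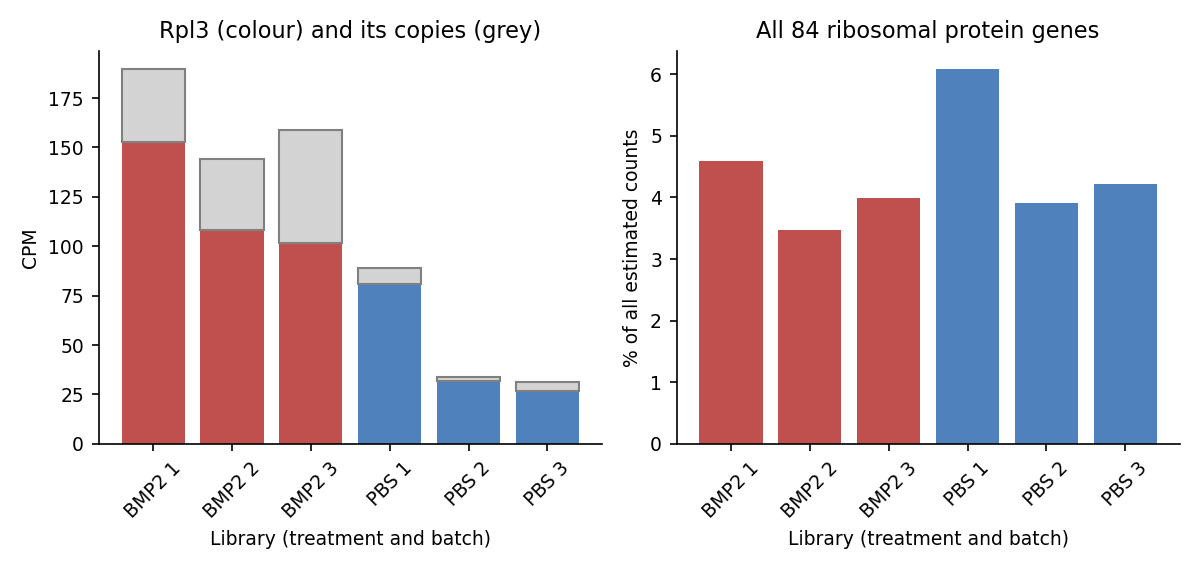
Left, CPM of Rpl3 (colour) with its pseudogene copies stacked on top (grey), by library; right, percent of all estimated counts at the 84 ribosomal protein genes. BMP2 libraries are red and PBS libraries blue. Rpl3 with copies is at 144 to 189 CPM in BMP2 and 31.1 to 88.8 CPM in PBS, while the share of all members is highest in PBS library 1, at 6.08%.

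Paralogs, second genes that encode a related protein, were tested beside their parent genes. Rpl22l1 had a log2 fold change of -0.28 and its parent Rpl22 of -0.42. Rpl36al had -0.20 and Rpl36a -0.57. Rps27l, a target of p53 in human cells, had 107, 93.8 and 106 CPM in BMP2 and 137, 84.7 and 92.4 CPM in PBS, a log2 fold change of -0.03 (SE 0.22). Rpl7l1, which acts in assembly of the large subunit, had 69.1, 65.4 and 100.0 CPM in BMP2 and 36.2, 66.1 and 87.5 CPM in PBS, a log2 fold change of 0.30 (SE 0.33), beside -0.02 (SE 0.24) for Rpl7. Rpl39, the parent of Rpl39l, had -0.32. None of these passed edgeR's test in either fit. Rpl10l and Rpl39l, known from testis, had no counts in any library, where 3 counts correspond to at most 0.103 CPM. Rpl3l, the muscle paralog of Rpl3, had no count in BMP2 libraries 1 and 3 and about 2 in BMP2 library 2, and in PBS no count in library 1 and about 1 each in libraries 2 and 3, so no fold is given.

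Levels per kilobase of transcript spread widely among members, although their proteins are used in about equal number. Highest was Rps24, with 3016 ± 420 TPM in BMP2 and 3550 ± 824 TPM in PBS (SD, n = 3 each, here and below). Rpl32 had 2262 ± 315 TPM in BMP2 and 2790 ± 632 TPM in PBS, and Rpl23 had 2253 ± 204 TPM in BMP2 and 2660 ± 397 TPM in PBS. Rps24 lay above Rpl32 by more than either SD in BMP2 and by less than its own SD in PBS, and Rpl32 and Rpl23 differed by less than their SDs. The lowest of those tested were Rps27 and Rpl12. Rps27 had 55.6 ± 23.7 TPM in BMP2 and 46.5 ± 16.8 TPM in PBS. It is near-identical to another member, Rps27rt, so its own level is uncertain. Rpl12 had 62.6 ± 12.1 TPM in BMP2 and 50.7 ± 15.1 TPM in PBS. Low levels went with copies in several cases, since 92.5% to 93.2% of the sum for Rpl12 sat at copies in BMP2 and 94.3% to 95.6% in PBS. Rps6 likewise had 86.3% to 87.4% of its sum at copies in BMP2 and 86.0% to 87.0% in PBS.

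Features that were not part of the choice of genes showed weak relations to the fold change. Across the 81 members, Spearman's rho of the log2 fold change was -0.27 with level per length, 0.10 with length, -0.33 with GC content and -0.09 with the share of 31-base words found in other genes. Genes are not independent replicates, and these values share the same libraries and depth. The 30 members that hold a small nucleolar RNA gene within their bounds had a median of -0.42, against -0.41 for the 51 without. Members with more than 25% of their words in other genes had a median of -0.42 (n = 41), against -0.41 for the rest (n = 40). The log2 differences of members in batches 1 and 2, 1 and 3, and 2 and 3 had a rho of 0.73, 0.38 and 0.60.

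Other genes of translation were set beside the members. Fau, which encodes a fusion of a ubiquitin-like protein with a ribosomal protein, had a log2 fold change of -0.50. Rack1, a scaffold on the small subunit, had -0.42, and neither was called in either direction. The 7 genes of elongation had a median of -0.38 (-0.12 without PBS library 1), and none was called. Eef2, which moves the ribosome along the messenger RNA, was lowest at -0.61 and Eef2k, the kinase that inhibits it, highest at 0.79 (SE 0.48, edgeR adjusted p = 0.883). The 6 other TOP messenger RNAs had a median of -0.53 (-0.32 without PBS library 1). Among them 1, Hnrnpa1, which encodes a splicing factor, was called lower with the block, beside 0.364% of all genes. Pseudogene copies were sought for ribosomal protein genes alone, so values of these other genes are as deposited. Hnrnpa1 had 38.8, 31.6 and 16.7 CPM in BMP2 and 78.2, 56.5 and 37.4 CPM in PBS, with a log2 fold change of -0.98 (SE 0.37, edgeR adjusted p = 0.850) and -1.003 with the block (SE 0.14, edgeR adjusted p = 0.0372). The TOP genes Pabpc1, the poly(A)-binding protein, and Tpt1 had log2 fold changes of -0.67 and -0.31 and were not called.

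Genes that build or regulate ribosomes did not share one direction. The 29 ribosome biogenesis genes tested had a median of 0.21 (0.15 without PBS library 1), and none was called. They ran from -0.40 in Ncl, which encodes nucleolin, to 0.78 in Rrp12. Within batches 1, 2 and 3 their median log2 difference was 0.18, -0.02 and 0.32. The 49 initiation factors had a median of -0.11, from -0.70 in Eif3f to 0.58 in Eif2b3, and none was called. Without PBS library 1 their median was -0.0042 and 25 of 49 lay below 0. The 11 genes that control TOP messenger RNAs had a median of -0.20 (-0.14 without PBS library 1). Among them 1, Ddit4, an inhibitor of mTOR signalling, was called lower with the block, beside 0.364% of all genes. Ddit4 had 46.8, 33.6 and 37.9 CPM in BMP2 and 172, 63.7 and 89.9 CPM in PBS, with a log2 fold change of -1.46 (SE 0.36, edgeR adjusted p = 0.437) and -1.35 with the block (SE 0.20, edgeR adjusted p = 0.0466). The 78 mitochondrial ribosomal proteins, which serve a separate ribosome, had a median of 0.00 (0.09 without PBS library 1) and none was called. Differences between these lists were not tested.

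**Figure D5:**
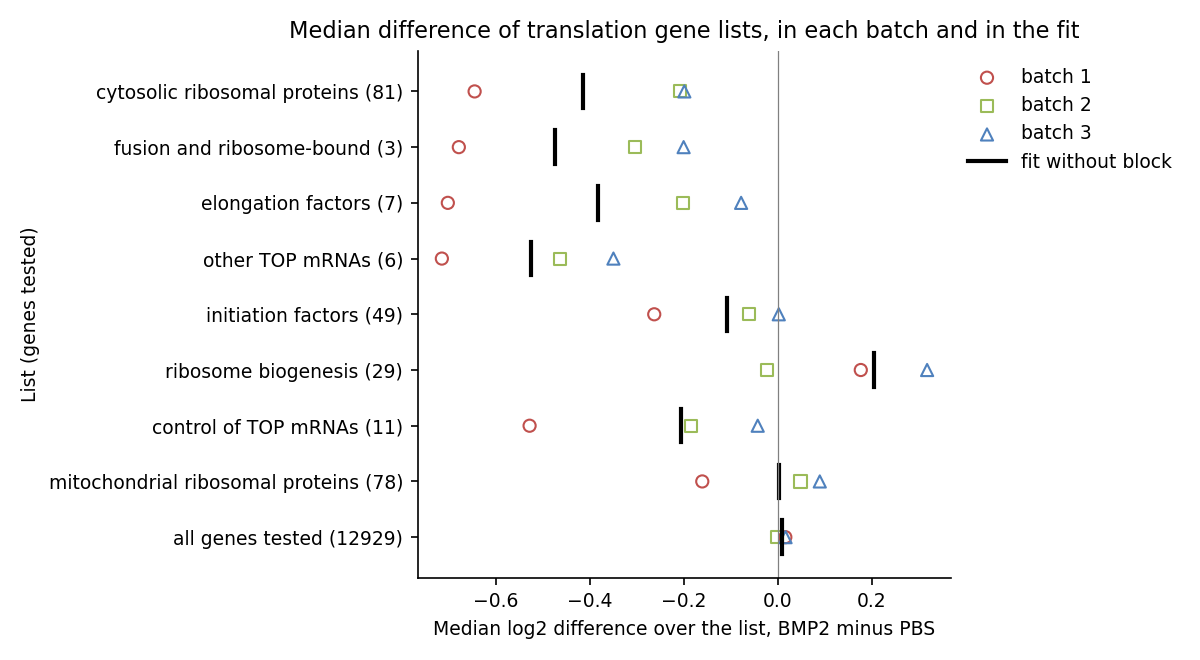
Median log2 difference (BMP2 minus PBS) of lists of translation genes, within each batch (symbols) and in the fit without the block (bar); numbers of genes tested stand beside each list. Cytosolic ribosomal proteins lie at -0.65, -0.21 and -0.20 in batches 1, 2 and 3, mitochondrial ribosomal proteins at -0.16, 0.05 and 0.09, and all genes near 0.

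Library totals lay between 27821911 and 36856498 estimated counts. Markers of melanoma cells, all 7 of 7 being found, summed to 28870 to 39071 CPM in BMP2 libraries and 23669 to 26310 CPM in PBS libraries, without overlap. Of the markers fixed for leukocytes, endothelium, fibroblasts, keratinocytes and red cells, 14 of 15 were in the table, Cdh5 and Hbb-bs were at 0, and the highest sum was 3.05 to 5.23 CPM in BMP2 and 4.34 to 8.51 CPM in PBS, for fibroblasts. Leukocyte markers summed to 2.54 to 3.63 CPM in BMP2 and 4.29 to 5.53 CPM in PBS, without overlap. Most of that sum was Cd68 alone, at 2.02 to 3.06 CPM in BMP2 and 3.53 to 4.93 CPM in PBS. Ptprc reached at most 0.096 CPM and Cd3e 0.034 CPM in any library, and Cd79a overlapped between the groups. Among single genes tested, all BMP2 libraries lay below all PBS libraries in 5.7% and above them in 6.4%. The part of the shifts in marker sums in the results above was not tested. Counts at genes of the mitochondrial genome made up 4.32% to 4.62% of each BMP2 library and 4.12% to 4.60% of each PBS library.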

How the data were processed

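Estimated counts per gene, which can be fractional, are what the authors deposited. They used kallisto 0.44.0 and GRCm38.p6, per the submitters' processing notes; annotation and strand setting: not given in the sources used here. Reads that fit several transcripts are split by likelihood, so identical copies share reads. Libraries came from total RNA with a TruSeq kit, per the labels' protocols. Of 34981 identifiers, 34679 matched GENCODE M21.

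Counts were rounded, filtered with filterByExpr, scaled by TMM and tested on treatment in R 4.3.3 (edgeR 4.0.16, quasi-likelihood), with Benjamini-Hochberg adjustment over 12929 genes and a threshold of 0.05. CPM are TMM-scaled. Log2 fold changes are BMP2 minus PBS, and within-batch differences use an offset of 0.1 CPM. The SE was worked back from the F statistic. The labels state that a number marks a shared batch. Deviations from group means correlated at 0.51, 0.25 and 0.52 within batches 1, 2 and 3, so batch as a block was also fitted, which leaves 2 residual degrees of freedom against 4. DESeq2 1.42.0 and limma 3.58.1 served as alternatives, and the scripts were tested on simulated data. Copies were found by 31-base words of GENCODE transcripts, and coding sequences taken as the longest reading frame. Named genes are members called in either fit, the 8 lowest and 8 highest, the P stalk, paralogs with parents, and a few fixed genes; members set apart by counts of batches or groups, and those whose copies are described, were also named after their values were seen. The members and lists were chosen with earlier results of these data known. Values of a few genes are not reported here.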

Additional observations from a re-analysis of the deposited data

How the results depend on the processing

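The count of members called higher was 0 with treatment alone under each scaling, filter and test tried, and without each library in turn, where the range was 0 to 0. It was 1 (Rpl3) with the replicate block, with the block and near-identical genes or copies summed, and with the block under DESeq2 size factors, the DESeq2 test or quantile normalization with limma. Without batch 3 it was 1, and without batch 1 it was 3 (Rpl3, Rpl5 and Rpl10), both with the block (0.874% and 1.73% of all genes). Without batch 2, with the block, the call of Rpl3 was lost (adjusted p = 0.166) and the count was 0, beside 0.0686% of all genes. No member was called lower, except 8 with DESeq2 and the block. The median log2 fold change was -0.079 without PBS library 1, and -0.54 to -0.079 over the libraries left out in turn. With the block it was -0.37.

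Summing near-identical genes turned the log2 fold changes of Rpl10 (-0.41), Rpl27 (-0.30), Rpl30 (-0.65), Rpl5 (-0.46), Rps27 (-0.45) and Rps28 (-0.42), and with the replicate block they were -0.39, -0.28, -0.61, -0.43, -0.43 and -0.39. Summing all copies gave -0.41, -0.31, -0.65, -0.46 and -0.42 for Rpl10, Rpl27, Rpl30, Rpl5 and Rps28, and with the block -0.39, -0.28, -0.61, -0.43 and -0.39. In these genes the direction turned when counts at near-identical genes or copies were added. How those counts came to be divided was not tested. Rpl7 and Rps27l, near 0, turned to 0.23 and 0.055 under quantile normalization with limma (0.23 and 0.055 with the block) and to 0.065 and 0.16 without batch 1 with the block; Rps27 turned to -0.24 without batch 2 with the block. Over libraries left out in turn, the log2 fold change ran from -0.32 to 0.35 for Rps27, -0.16 to 0.20 for Rpl7, -0.16 to 0.20 for Rps27l, -0.44 to 0.012 for Rpl22l1 and -0.48 to 0.0058 for Rpl39; the cause was not tested. Settings that sum all copies, and the block under DESeq2 or quantile normalization, were chosen after seeing the data. Of 638 values of 29 named genes under alternatives, 38 reversed and 15 passed the threshold that had not before. In edgeR with all libraries the block changed no call of a named gene but that of Rpl3. Under DESeq2 with the block, 6 named genes passed.

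With 3 libraries a treatment, p-values rest on few degrees of freedom, and the common difference of the members leans on batch 1. Counts divided between identical copies carry an error that the SE does not hold. Estimated counts per gene do not show isoforms or translation.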
